A study of Mus musculus with 2 samples.

Results

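The 4 Hox clusters of the mouse genome were examined in the peak lists of an ATAC-seq experiment. Members were the protein-coding genes whose symbol is Hoxa, Hoxb, Hoxc or Hoxd followed by a number in the GENCODE vM21 annotation of GRCm38, which gave 39 genes of the 21853 protein-coding genes on chromosomes 1 to 19, X and Y. A peak was assigned to a cluster when its center lay between the first and the last gene of that cluster or within 5 kb outside them. This placed 40 of 77596 peaks of one list and 46 of 100431 peaks of the other in the clusters. The rule itself uses gene symbols and positions and no measured value, but it was proposed with earlier results of these data known.

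ATAC-seq maps open chromatin by the sites where a transposase can insert adapters. The libraries were made from the organ of Corti (OC), the auditory sensory epithelium of the cochlea, of mice at postnatal day 2 (P2) that were wild type (WT) or lacked both copies of Bmi1 (Bmi1-/-, the Bmi1tm1Brn allele of the strain FVB.129P2-Bmi1tm1Brn/MvlJ, backcrossed to C57BL/6J). Both genotypes were littermates, the loss of Bmi1 was not limited to a cell type, and tissue of several animals was pooled. There was 1 library per genotype, so every value below has no replicate, and no difference between the genotypes could be tested. The dissected tissue holds several cell types, and a change in the number of cells with an open site and a change in openness per cell cannot be told apart.

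Hox genes encode homeodomain transcription factors that give cells their identity along the head-to-tail axis. Each cluster carries up to 13 paralog positions, and the genes lie in the order in which they are used along the body, with the low numbers expressed toward the head and the high numbers toward the tail. Bmi1 is a component of Polycomb repressive complex 1 (PRC1), and the Hox clusters are classical targets at which Polycomb complexes keep genes silent outside their domain. The cochlea arises from the otic placode beside the hindbrain, at an axial level where the low-numbered paralogs are used in the neural tube.

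The labels and the peak names disagreed. In both lists, 100% of the peak names carried the prefix of the other genotype. The libraries were kept under their GEO labels and are called the library labelled WT and the library labelled Bmi1-/- throughout, and each direction given below holds for the labels only. The commonest background was 6.32 reads per site for WT and 8.04 for Bmi1-/-, by label. The library labelled Bmi1-/- held 1.29 times as many peaks over the genome. Read totals are not in the peak lists, so the sequencing depth is unknown. Of the marker genes of the tissue, 7 of 8 for supporting cells and 5 of 8 for hair cells, the mechanosensory cells, had a promoter peak in both lists. The corresponding counts were 1 of 5 for otic mesenchyme, 0 of 5 for neurons, 1 of 4 for glia, 0 of 4 for blood cells and macrophages and 1 of 4 for endothelium, and the 5 neuron markers each had one in 1 library only, 3 of them labelled Bmi1-/-. Over all protein-coding genes, 40.4% had a promoter peak in both lists, 17.8% in the library labelled Bmi1-/- only and 5.60% in the library labelled WT only. The exact 95% interval for supporting cells in both lists (47.3 to 99.7%) leaves out the 40.4%, and those of the other cell types include it. For neurons, the intervals for the library labelled Bmi1-/- only (14.7 to 94.7%) and labelled WT only (5.27 to 85.3%) include the shares over all genes. The part of these cell types in the Hox results was not tested.

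Sequences at the summits of 6 of the strongest peaks per cluster and library are shown, to let the base composition of these sites be read beside their values below. The strongest peaks of Hoxc are not among them, and the Hoxb9 peak is tied with one upstream of Hoxb4. Each runs 5′ to 3′ on the plus strand of GRCm38, from 50 bp before to 50 bp after the summit, with every CpG dinucleotide in capitals.
Upstream of Hoxd12, library labelled Bmi1-/-, chr2:74673986-74674086: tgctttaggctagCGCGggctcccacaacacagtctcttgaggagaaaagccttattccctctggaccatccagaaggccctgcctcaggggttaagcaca
Hoxa3 exon, library labelled Bmi1-/-, chr6:52170393-52170493: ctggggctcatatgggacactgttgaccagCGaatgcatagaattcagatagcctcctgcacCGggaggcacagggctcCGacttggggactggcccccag
Upstream of a Hoxb3 start, library labelled Bmi1-/-, chr11:96343660-96343760: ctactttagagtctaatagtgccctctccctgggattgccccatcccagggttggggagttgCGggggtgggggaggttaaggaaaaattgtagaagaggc
Hoxd11 exon, library labelled WT, chr2:74682578-74682678: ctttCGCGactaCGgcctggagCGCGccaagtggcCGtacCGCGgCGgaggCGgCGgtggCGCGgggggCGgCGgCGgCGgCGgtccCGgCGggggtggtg
Near Hoxa5, library labelled WT, chr6:52203585-52203685: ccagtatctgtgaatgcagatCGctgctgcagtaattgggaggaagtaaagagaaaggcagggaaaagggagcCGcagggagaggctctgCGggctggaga
Near Hoxb9, library labelled WT, chr11:96272301-96272401: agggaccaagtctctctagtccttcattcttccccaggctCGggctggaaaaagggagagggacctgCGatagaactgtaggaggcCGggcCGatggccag
The window in the Hoxd11 exon had 82.2% GC and 20 CpGs. The window upstream of Hoxb3 had 1 CpG. The strongest peak of all, upstream of Hoxd12, had 55.4% GC and only 2 CpGs at its summit, so a high CpG content was not shared by these sites.

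The clusters were denser in peaks than the genome in both lists. There were 0.752 peaks per 10 kb in the clusters in the library labelled WT, against 0.285 over the genome. In the other library there were 0.865 peaks per 10 kb, against 0.368 over the genome. The density in the clusters was 2.64 times that of the rest of the genome in the library labelled WT (95% interval 1.89 to 3.60) and 2.35 times in the library labelled Bmi1-/- (1.72 to 3.13). Intervals here and below are exact, from the binomial distribution, and cover counting error only. In the 8 flanks of 100 kb outside the clusters the density was 0.300 and 0.325 peaks per 10 kb, near that of the genome.

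Gene starts are packed in the clusters, and this moved with the density. The windows within 1 kb of a start of a protein-coding transcript made up 20.5% of the clusters and 2.37% of the genome. Within these windows the Hox clusters had 1.56 peaks per 10 kb in the library labelled WT, against 1.84 over all genes, and 2.67 in the library labelled Bmi1-/-, against 2.40. Outside them, the clusters had 0.544 peaks per 10 kb against 0.247 in the library labelled WT, and 0.402 against 0.319 in the library labelled Bmi1-/-. Promoter windows of Hox genes were about as rich in peaks as those of other genes (17 and 29 peaks), and 23 and 17 peaks lay elsewhere in the clusters.

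The number of Hox cluster peaks was 40 in the library labelled WT and 46 in the library labelled Bmi1-/-, a ratio of 1.15 (0.736 to 1.80), and this interval includes both 1 and the ratio of the whole lists. When the 77596 strongest peaks of each library were compared, the ratio was 0.850. By cluster the ratio was 0.875 in Hoxa (7 against 8 peaks), 1.56 in Hoxb (14 against 9), 1.12 in Hoxc (9 against 8) and 1.07 in Hoxd (16 against 15). The interval of each of these 4 ratios includes 1. The position of the peaks relative to the Hox starts was then compared. In the library labelled Bmi1-/-, 29 of 46 Hox cluster peaks (63.0%, 47.5 to 76.8) lay within 1 kb of a Hox start. In the library labelled WT, 17 of 40 did (42.5%, 27.0 to 59.1). Over the genome the shares were 15.4% and 15.3%. The ratio of Bmi1-/- to WT was 1.71 for peaks near a Hox start (0.907 to 3.31) and 0.739 for the other Hox cluster peaks (0.371 to 1.45), and these intervals overlap. Over the genome the ratios were 1.31 near starts and 1.29 elsewhere, and the Hox intervals include them. In the library labelled WT, 8 peaks lay over noncoding genes only, such as Hotairm1, Hoxa11os, Hottip and Haglr, against 1 in the library labelled Bmi1-/-. The share of such peaks over the genome was not counted, so these small counts have nothing to be set against. The remaining peaks were in exons (3 and 2), in introns (6 and 8) or between genes (6 and 6), in the order WT and Bmi1-/-.

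Hoxd had the highest density of peaks in both lists. It had 1.40 peaks per 10 kb in the library labelled WT and 1.5 in the library labelled Bmi1-/-, against 0.489 to 0.694 and 0.607 to 0.761 in the other 3 clusters. Peaks covered 4.45% and 5.37% of Hoxd. The longest stretch without a peak of either list was 12.4 kb in Hoxd, and it held no Hox gene. In Hoxa it was 24.3 kb and spanned Hoxa7 and Hoxa9, in Hoxb it was 24.7 kb with no Hox gene, and in Hoxc it was 25.6 kb and spanned Hoxc6. Counted over both lists, there were 27 separate sites in Hoxd, 21 in Hoxb, 16 in Hoxc and 15 in Hoxa.

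Most Hox cluster peaks had a low fold enrichment, as did most peaks of both lists. Their fold enrichment over the local background had a median of 2.46 (1.96 to 3.15) in the library labelled WT and 2.34 (1.88 to 3.54) in the library labelled Bmi1-/-. Over all peaks the medians were 2.46 and 2.32. The pileup at the summit, the number of reads stacked there, was 14 to 24 with a median of 17.5 in the library labelled WT, and 16 to 31 with a median of 21.0 in the library labelled Bmi1-/-. Ranked by p-value among all peaks of the same list, the Hox cluster peaks had a median percentile of 40.1 and 54.5. Above the 90th percentile there was 1 peak in the library labelled WT and 2 in the library labelled Bmi1-/-. A q-value under 0.05 was reached by 19 of 40 (47.5%, 31.5 to 63.9) and by 30 of 46 (65.2%, 49.8 to 78.6), close to the shares over all peaks of 52.4% and 62.8%. A −log10 q of at least 5 was reached by 0 of 40 and 1 of 46, against 1262 of 77596 and 4246 of 100431 peaks of the whole lists.

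**Figure D1:**
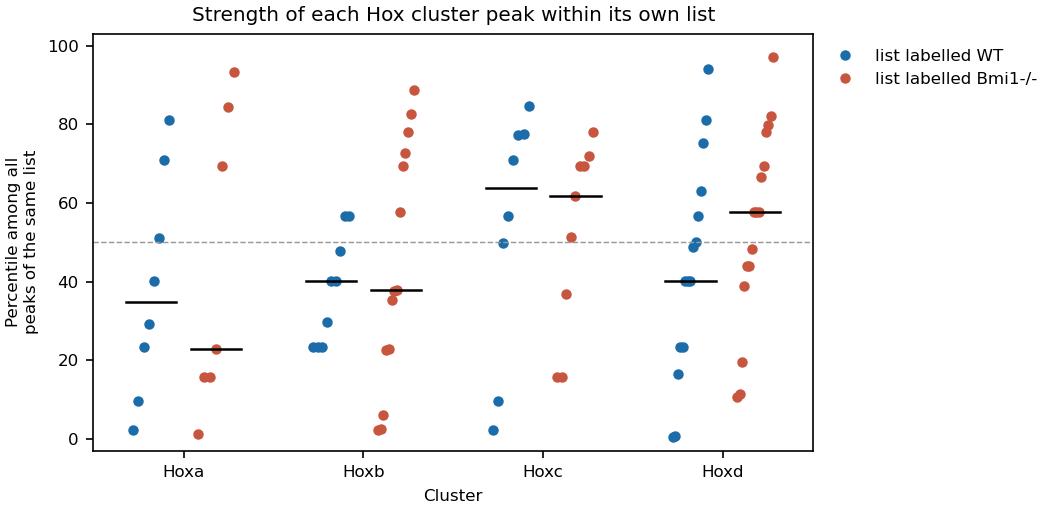
Percentile of every Hox cluster peak among all peaks of its own list, by cluster, with the library labelled WT in blue, the library labelled Bmi1-/- in red, medians as black lines and the list median as a dashed line. In Hoxa, Hoxb and Hoxc the medians of both lists were close to each other or lower in the library labelled Bmi1-/- (22.8 against 34.7 in Hoxa), and in Hoxd the median was 57.8 in that list against 40.1.

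At the promoters, defined as 1 kb to each side of a start, 12 of 39 Hox genes (30.8%, 17.0 to 47.6) had a peak in both lists, against 40.4% of all protein-coding genes. A peak in the library labelled Bmi1-/- only was found at 11 Hox genes (28.2%, 15 to 44.9), against 17.8% of all genes. A peak in the library labelled WT only was found at 3 Hox genes (7.69%, 1.62 to 20.9), against 5.60%. The other 13 Hox genes (33.3%, 19.1 to 50.2) had none, against 36.3%. All 4 intervals include the share over all genes. No promoter peak was counted for more than 1 Hox gene.

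**Figure D2:**
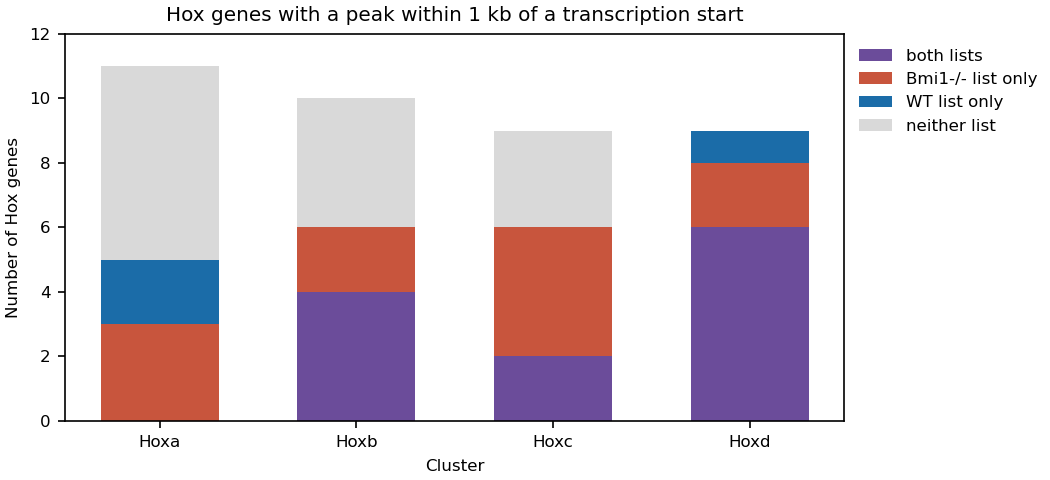
Number of Hox genes in each cluster with a peak within 1 kb of a start in both lists, in 1 list only or in neither, as stacked bars. Hoxd has 6 of 9 genes with a peak in both lists and none without a promoter peak, and Hoxa has 6 of 11 genes with none. Over all protein-coding genes, 40.4% had one in both lists and 36.3% in neither.

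By cluster, Hoxd had promoter peaks at all 9 genes in at least 1 list. Of these, 6 had a peak in both lists (Hoxd1, Hoxd3, Hoxd4, Hoxd8, Hoxd11 and Hoxd12), 2 in the library labelled Bmi1-/- only (Hoxd10 and Hoxd13) and 1 in the library labelled WT only (Hoxd9). In Hoxa no gene had a peak in both lists, 6 of 11 had none, Hoxa2, Hoxa4 and Hoxa10 had one in the library labelled Bmi1-/- only, and Hoxa5 and Hoxa13 in the library labelled WT only. In Hoxb the peaks of Hoxb1, Hoxb6, Hoxb9 and Hoxb13 were in both lists, those of Hoxb3 and Hoxb7 in the library labelled Bmi1-/- only, and 4 of 10 genes had none. In Hoxc the peaks of Hoxc8 and Hoxc10 were in both lists, those of Hoxc4, Hoxc9, Hoxc12 and Hoxc13 in the library labelled Bmi1-/- only, and 3 of 9 genes had none. The genes with none in either list included Hoxa3, Hoxa7, Hoxa9, Hoxb2, Hoxb4, Hoxb5, Hoxb8, Hoxc5, Hoxc6 and Hoxc11. Over all genes, 40.4% had a peak in both lists and 36.3% in neither. The interval for Hoxd in both lists (29.9 to 92.5%) includes that share. Those for Hoxd in neither (0 to 33.6%) and for Hoxa in both lists (0 to 28.5%) leave the share over all genes out. These 9 to 11 genes per cluster are few, and the differences between clusters were not tested.

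By paralog position, promoter peaks were found along the whole series. Of the 8 genes at positions 1 to 3, 5 had a peak in the library labelled Bmi1-/- and 3 in the library labelled WT. Of the 15 genes at positions 4 to 8, the counts were 7 and 5. Of the 16 genes at positions 9 to 13, which act in the trunk, tail and limbs, the counts were 11 and 7. Neither list had a peak at 3, 7 and 3 genes of these groups. Over all protein-coding genes the shares were 58.1% for the library labelled Bmi1-/-, 46.0% for the library labelled WT and 36.3% for neither, and the intervals of all 3 groups include them. At positions 10, 12 and 13 every Hox gene had a promoter peak in at least 1 list. These positions hold only 3, 2 and 4 genes and were picked by their counts. Their intervals for neither list (0 to 70.8%, 0 to 84.2% and 0 to 60.2%) include the 36.3% of all genes.

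The promoter peaks of Hox genes ranked lower than those of other genes. The strongest promoter peak of each Hox gene with one had a median percentile of 47.9 (15 genes, labelled WT) and 69.3 (23 genes, labelled Bmi1-/-), against 77.9 and 89.5 over all genes with a promoter peak. Above the 90th percentile were Hoxd11 in the library labelled WT and Hoxd12 in the library labelled Bmi1-/-. Promoter peaks ranked higher in the library labelled Bmi1-/- at 18 of 26 Hox genes (69.2%, 48.2 to 85.7) when a missing peak was ranked lowest, and at 71.7% of 13923 genes over the genome. Among the genes with a peak in both lists it ranked higher at 7 of 12 Hox genes and at 69.1% of all.

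CpG-rich promoters are the kind that Polycomb complexes bind, and they are open at most active genes. A promoter was counted as CpG-rich where the 500 bp around a start had at least 50% GC and an observed over expected CpG ratio of at least 0.6, a class chosen after the peak lists had been seen. It held 27 of 39 Hox genes and 54.8% of all genes. Of the CpG-rich Hox genes, 8 of 27 (29.6%, 13.8 to 50.2) had a promoter peak in both lists, against 64.7% of the 11985 CpG-rich genes. Any promoter peak in the library labelled WT was found at 11 of them (40.7%, 22.4 to 61.2) against 69.0%. For Bmi1-/- the count was 16 (59.3%, 38.8 to 77.6) against 85.7%. No peak in either list was found at 8 (29.6%, 13.8 to 50.2) against 10.1%. The share over all CpG-rich genes lay outside each of these 4 intervals, which describe overlapping groups of genes. A peak labelled Bmi1-/- only was found at 8 (29.6%, 13.8 to 50.2) against 20.9% and one labelled WT only at 3 (11.1%, 2.35 to 29.2) against 4.27%, and these intervals include the share over all CpG-rich genes. The median percentile of the CpG-rich Hox promoter peaks was 49.7 and 64.1, against 83.0 and 92.2. The Hox genes with other promoters were Hoxa2, Hoxb1, Hoxb2, Hoxb3, Hoxb4, Hoxb5, Hoxb13, Hoxc4, Hoxc5, Hoxc6, Hoxd4 and Hoxd12.

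**Figure D3:**
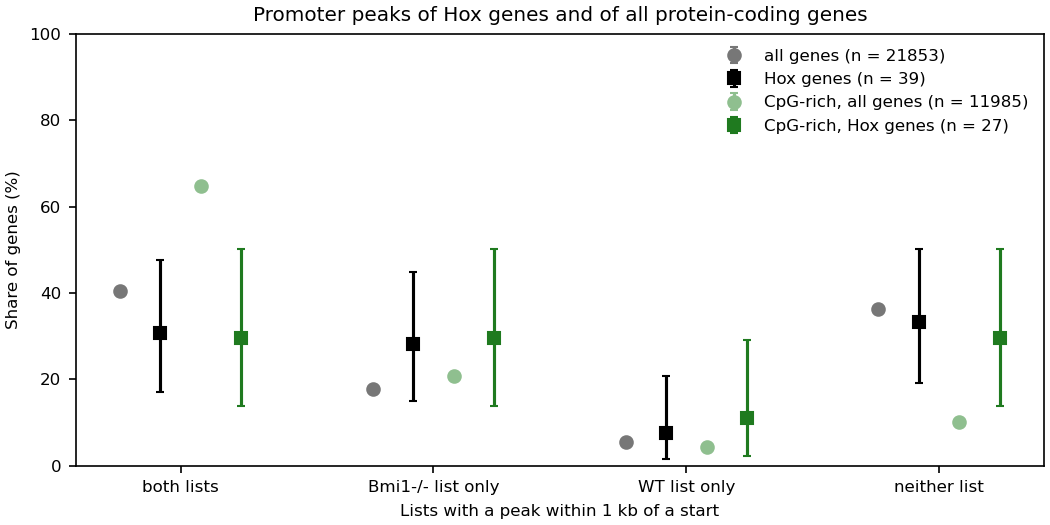
Share of genes in percent with a promoter peak in both lists, in 1 list only or in neither, for all protein-coding genes, the 39 Hox genes, and the CpG-rich promoters of each, with exact 95% intervals. The Hox genes sit near all genes (30.8% against 40.4% in both lists), and the CpG-rich Hox genes sit well under all CpG-rich genes (29.6% against 64.7%).

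The peaks of the 2 lists seldom overlapped, in the Hox clusters as over the genome. Of the Hox cluster peaks of the library labelled WT, 7 of 40 (17.5%, 7.34 to 32.8) overlapped a peak of the other list by at least 1 bp, against 24.8% of all peaks. For Bmi1-/- it was 7 of 46 (15.2%, 6.34 to 28.9), against 18.5%. Both intervals include the share over all peaks. Hoxd held 4 of the overlaps, Hoxb 2, Hoxc 1 and Hoxa 0, and with 7 to 16 peaks per cluster and list these counts are too small to set the clusters apart. The nearest peak of the other list was within 1 kb for 14 of 40 and 16 of 46 peaks, and over 5 kb away for 15 and 17. These distances were not counted over all peaks, so whether they are usual is not known.

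The 12 Hox genes counted as open in both lists were not all open at the same site. Every promoter peak of a gene was counted here, and not only the strongest. In 6 of the 12 (50%, 21.1 to 78.9) promoter peaks of the 2 lists overlapped, namely Hoxb1, Hoxb13, Hoxc10, Hoxd1, Hoxd11 and Hoxd12. Over all genes with promoter peaks in both lists this was so for 89.1% of 8819. Among the 5155 of these genes within the percentile range of the Hox genes in each list, it was 82.7% (81.6 to 83.7). Promoter peaks of Hox genes ranked lower than those of other genes, as given above. Ranks were not matched further within that range, and the part of peak strength in this difference was not tested. The comparison was chosen after the values had been seen. At Hoxb6, Hoxb9, Hoxc8, Hoxd3, Hoxd4 and Hoxd8 the peaks lay at different positions in the 2 lists. At Hoxc10, Hoxd11 and Hoxd12 the strongest promoter peaks of the 2 lists did not overlap each other.

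At none of the 7 shared sites did the interval of the pileup ratio leave out 1. A shared site is a pair of peaks that overlap, here by 44 to 393 bp. Each pileup was read at the summit of its own peak, and the summits of a pair lay 77 to 314 bp apart. Each pileup was divided by the commonest background of its own list, and the ratio of Bmi1-/- to WT was taken. Near Hoxb1, which sets the identity of one segment of the embryonic hindbrain, the pileup was 16 reads labelled WT and 23 labelled Bmi1-/-, a scaled ratio of 1.13 (0.572 to 2.29). Near Hoxb13, expressed at the tail end of the embryo, it was 17 and 22 reads, a ratio of 1.02 (0.516 to 2.04). Both values in the Hoxb cluster lay above 1, and in Hoxc and Hoxd all 5 lay below it. The side of 1 depends on the scaling, since near Hoxc10, Hoxd12 and Hoxd1 the unscaled pileup was higher in the library labelled Bmi1-/-.

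Near Hoxc10, a gene of the lumbar spinal cord, the pileup was 19 and 23 reads, a ratio of 0.952 (0.496 to 1.85). Near Hoxd12 it was 20 and 21 reads, and near Hoxd1 also 20 and 21 reads, with a ratio of 0.825 (0.426 to 1.6) at each. The smallest ratios were at the exon of Hoxd3, with 20 and 18 reads and 0.707 (0.353 to 1.41), and at Hoxd11, with 24 and 19 reads and 0.622 (0.322 to 1.19). No site was called above a ratio of 1.5, a limit passed by 5.32% of the 19222 shared pairs, and only the Hoxd11 site was under 1/1.5, passed by 2.73%. The median ratio was 0.825 over the 7 sites and 0.993 over all pairs. When the overlap had to cover at least 50% of both peaks, 7.50% of the Hox cluster peaks labelled WT stayed paired. The median ratio of those was 0.952. Without the scaling to background, which multiplies every ratio by 1.27, the median of the 7 was 1.05 and that over all pairs 1.26.

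**Figure D4:**
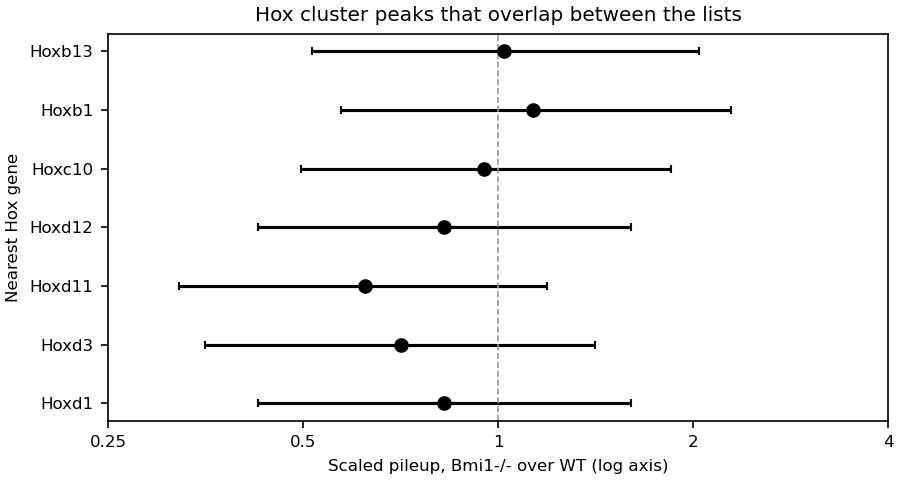
Ratio of the scaled summit pileup, Bmi1-/- over WT on a log axis, for the 7 Hox cluster sites with overlapping peaks, named by the nearest Hox gene, with exact 95% counting intervals. The points run from 0.622 at Hoxd11 to 1.13 at Hoxb1, and every interval crosses 1.

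Within Hoxd, the strongest Hox peak of either list lay at chr2:74673874-74674188, between Hoxd13 and Hoxd12 and 982 bp upstream of the Hoxd12 start. Both genes act in the digits and the urogenital tract. In the library labelled Bmi1-/- this peak had 31 reads, a fold enrichment of 3.54 (−log10 q 6.02) and a percentile of 97.0, and no peak labelled WT overlapped it. A pileup of 31 reads corresponds to 24.4 reads at the background of the library labelled WT, where the lowest pileup deposited at the commonest background was 13 reads. The peak was picked as the strongest, and the pileup labelled WT at this site is not known. The parts of depth, of chance and of this choice were not tested. The nearest peak labelled WT was the one 302 bp past the Hoxd12 start, which is among the shared sites. The strongest Hoxd peak labelled WT lay in an exon of Hoxd11 at chr2:74682482-74683119, with 24 reads, a fold enrichment of 3.15 (−log10 q 3.22) and a percentile of 94.0.

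Hoxd8 had a peak of 17 reads labelled WT, 392 bp upstream of its start (fold enrichment 2.46, percentile 40.1). It had a peak of 22 reads labelled Bmi1-/-, 678 bp downstream (2.54, percentile 69.3). These peaks did not overlap, so the gene had a promoter peak in both lists at different sites. Hoxd10, a gene of the lumbar spinal cord, had 22 reads 725 bp upstream of its start in the library labelled Bmi1-/- only, with a −log10 q of 1.97. Hoxd13 had 21 reads 515 bp downstream, also in that list only, with a −log10 q of 1.65. Hoxd9 went the other way, with 16 reads labelled WT 514 bp upstream and a −log10 q of 0.90, which is short of a q of 0.05. At Hoxd3 the peak near the start had 14 reads labelled WT, near the lowest pileup deposited, and 24 reads labelled Bmi1-/-, and the 2 peaks did not overlap. At Hoxd4 the peaks had 17 and 23 reads and did not overlap either.

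Within Hoxb, the strongest peak labelled Bmi1-/- lay at chr11:96343542-96343805, 96 bp upstream of a start of Hoxb3, a gene of the hindbrain and pharyngeal arches. It had 25 reads, a fold enrichment of 2.87 (−log10 q 3.13) at percentile 88.6, and no peak labelled WT was found within 1 kb of a Hoxb3 start. Hoxb7 had 23 reads in the library labelled Bmi1-/- only, 637 bp downstream of its start, with a −log10 q of 2.33. The strongest Hoxb peaks labelled WT were tied, at chr11:96272275-96272736 near Hoxb9 and at chr11:96315190-96315583 upstream of Hoxb4, each with 18 reads, a fold enrichment of 2.59 and a percentile of 56.8. At Hoxb9 and Hoxb6 the promoter peaks labelled WT had 18 reads at each gene, and the peaks labelled Bmi1-/- had 17 and 20 reads elsewhere in the promoter. A group of 4 peaks labelled Bmi1-/- lay 21488 to 32429 bp from the Hoxb13 start, in the long stretch between Hoxb13 and Hoxb9.

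Within Hoxc, the strongest peak labelled Bmi1-/- lay in an exon of Hoxc10, with 23 reads, a fold enrichment of 2.65 (−log10 q 2.33) at percentile 78.0. It overlapped a peak labelled WT of 19 reads. The strongest peak labelled WT lay in an exon of Hoxc5 at chr15:103016742-103017047, with 21 reads, a fold enrichment of 2.89 (−log10 q 2.25) at percentile 84.6. It was more than 1 kb from every Hox start. The 4 genes with a promoter peak in the library labelled Bmi1-/- only all passed a q of 0.05. Hoxc4 and Hoxc13, the latter required for hair and nails, had 22 reads and a −log10 q of 1.97 each. Hoxc12 had 23 reads and a −log10 q of 1.98, and Hoxc9, which patterns the thoracic spinal cord, had 23 reads and a −log10 q of 1.69. At Hoxc8 the peaks of 18 reads labelled WT and 18 reads labelled Bmi1-/- lay on opposite sides of the start.

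Within Hoxa, the strongest peak labelled Bmi1-/- lay in an exon of Hoxa3 at chr6:52170110-52170593, with 27 reads, a fold enrichment of 3.1 (−log10 q 4.02) at percentile 93.4. Hoxa3 is needed for the thymus and parathyroid, and none of its starts had a peak within 1 kb. The strongest peak labelled WT lay at chr6:52203545-52203929 near Hoxa5, a gene of lung development, with 20 reads, a fold enrichment of 2.87 (−log10 q 2.07) at percentile 81.0. Hoxa4 had 22 reads in the library labelled Bmi1-/- only, with a −log10 q of 1.97. The other promoter peaks of Hoxa missed a q of 0.05. They were at Hoxa2, which patterns the second pharyngeal arch and with it parts of the middle and external ear (16 reads), Hoxa10 (19 reads) and Hoxa13 (16 reads, labelled WT).

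The sequence around Hox summits was richer in GC and CpG than that of other peaks. Within 100 bp of the summit, the median GC content was 57.2% in the library labelled WT and 59.2% in the library labelled Bmi1-/-, against 52.7% for all peaks of each list. The observed over expected CpG ratio was at least 0.6 at 14 of 40 (35%) and 18 of 46 (39.1%) Hox summits, against 12.2% and 11.7%. The median ratio was 0.47 and 0.45 at Hox summits, against 0.20 and 0.19 at all summits. Over the whole clusters it was 0.47 in Hoxa, 0.34 in Hoxb, 0.35 in Hoxc and 0.45 in Hoxd, and the medians at the summits were near these values. No Hox summit lay in a window that was mostly repeats, against 11.6% and 12.6% of all summits. The clusters themselves are poor in repeats, with 13.3% of Hoxa, 24.3% of Hoxb, 15.9% of Hoxc and 14.5% of Hoxd masked, against 36.4% of the genome. Homeodomain proteins of the Hox family bind with Pbx partners at TGATNNAT. Searched on both strands within 100 bp of the summit, this motif was in 3 of 40 Hox windows labelled WT (7.50%, 1.57 to 20.4) and in 1 of 46 labelled Bmi1-/- (2.17%, 0.0550 to 11.5), against 5.35% and 5.16% of all peaks.

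The clusters also carry microRNA genes, and the mature forms of the 2 families with shared seeds are shown from RefSeq (GRCm38.p6), 5′ to 3′ with the seed, bases 2 to 8, in capitals. Of 7 annotated microRNA genes, 6 matched that table.
miR-10a-5p: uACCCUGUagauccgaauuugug
miR-10b-5p: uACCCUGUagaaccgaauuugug
miR-196a-5p: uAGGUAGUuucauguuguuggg
miR-196b-5p: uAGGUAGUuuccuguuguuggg
The genes of miR-10a (Hoxb) and miR-10b (Hoxd) share 1 seed, and those of miR-196a (Hoxb and Hoxc) and miR-196b (Hoxa) share another. Within 1 kb of a microRNA gene start there was 1 peak in each list, 493 bp upstream of Mir196a-1 in the library labelled Bmi1-/- and near Gm44463 in the library labelled WT. Near Mir10b the closest peaks lay 1292 bp (labelled WT) and 1630 bp (labelled Bmi1-/-) downstream, and near Mir10a the closest was a peak labelled WT 1778 bp upstream. Of 19 long noncoding RNA genes, 5 had a peak within 1 kb of a start in the library labelled WT and 4 in the library labelled Bmi1-/-. The start regions of Haglr, which lies head to head with Hoxd1, and Gm28309 had one in both. The shares over all microRNA and long noncoding RNA genes of the genome were not counted. Whether these counts are low or high is therefore not known.

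The genes that act with Hox proteins or upstream of them were counted from lists of the pathway. Of 9 TALE homeobox genes, whose products are the Pbx, Meis and Pknox partners of Hox proteins, 5 had a promoter peak in both lists, 2 in the library labelled Bmi1-/- only and 2 in neither. Of 10 genes that direct Hox expression in the hindbrain, which cover retinoic acid synthesis and breakdown, its receptors and early hindbrain factors, 6 had one in both lists, 2 in the library labelled Bmi1-/- only, 1 in the library labelled WT only and 1 in neither. Of 15 homeobox genes related to the Hox genes, 4 had one in both lists, 2 in the library labelled Bmi1-/- only, 1 in the library labelled WT only and 8 in neither. The intervals of these shares are wide, and for each of the 3 lists they include the shares over all genes of 40.4%, 17.8%, 5.60% and 36.3%. The median percentile of the promoter peaks, in the order WT and Bmi1-/-, was 92.9 and 94.1 for the TALE genes, 27.0 and 75.8 for the hindbrain genes and 70.8 and 61.2 for the related homeobox genes. For the Hox genes it was 47.9 and 69.3, so the lists did not lie on one side of them.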

How the data were processed

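ATAC-seq peak lists of the OC of P2 mice, 1 labelled WT and 1 labelled Bmi1-/-, were used. According to the methods and labels, reads were trimmed, checked with FastQC and aligned to mm10 by BWA-MEM, and each library was passed to MACS2 by itself. For the ATAC-seq libraries, tool versions and MACS2 options are not given in the sources used here. The fold enrichment deposited by the authors is the ratio of pileup to local background at the peak summit, and a pseudocount of 1 was found in both terms. The deposited −log10 p and −log10 q values set the summit against that background. The deposited score equals the −log10 p multiplied by 10, and no step relied on it. The weakest peaks had a −log10 p of 2.00 in one library and 2.01 in the other, and many had a high q-value.

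Restriction to chromosomes 1 to 19, X and Y left 77596 of 77826 and 100431 of 100668 peaks. Pileup and background were solved from the fold enrichment and −log10 p. Whether they count reads or fragments could not be settled, and they are called reads throughout. A whole pileup resulted for 100% of the peaks, and the same solver was tested on simulated data. Starts were those of protein-coding transcripts in GENCODE vM21, and distances run from a start to the peak center. Percentiles rank peaks by −log10 p within a library. Shares have exact Clopper-Pearson intervals, and ratios have intervals from the binomial distribution of the counts. Python 3.11.15, numpy 2.4.6, pandas 2.3.3, scipy 1.17.1 and matplotlib 3.10.9 were used.

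All 39 genes entered the counts, and some items are not reported here. Values were given in full for the strongest peak of each cluster, for promoter peaks reaching 5 on the −log10 q scale, for those in 1 library only with a q under 0.05, for the shared sites and for Hoxd8. The members and gene lists were chosen with earlier results of these data known. Samples were grouped by GEO's genotype labels. No test was made, because each genotype had 1 library. Alternatives covered the q threshold, list size, flanks, overlap rule, promoter width, annotation and scaling.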

Additional observations from a re-analysis of the deposited data

How the results depend on the processing

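Of 61 recomputed values, 47 stayed within 1.5 times the count or within the interval of the value reported, and 14 moved. With q under 0.05 in both lists, the Hox cluster peaks were 19 labelled WT and 30 labelled Bmi1-/-, and 4 Hox genes had a promoter peak in both lists. At a −log10 q of at least 5 there were 0 and 1 peaks, the overlap of the peak labelled Bmi1-/- was 0%, and the promoter counts were 0 in both lists, 1 in the library labelled Bmi1-/- only, 0 in the library labelled WT only and 38 in neither. No ratio, overlap of peaks labelled WT or pileup ratio could be had at that limit. With 77596 peaks per library, 6 Hox genes had a promoter peak in the library labelled WT only, and the ratio of peak numbers fell to 0.850, on the other side of 1. With a promoter window of 3 kb, 7 genes had one in the library labelled WT only and 9 in the library labelled Bmi1-/- only. With 500 bp, 7 had one in both lists and 21 in neither. With curated RefSeq transcripts, 8 had one in both lists and 14 in the library labelled Bmi1-/- only, against 12 and 11 in the main setting. The shares over all genes were not recomputed at these settings. Unscaled pileups, which multiply every ratio by 1.27, put the median of the shared Hox sites at 1.05 and that of all pairs at 1.26. Peak lists without read totals limit the comparison to sites above 13 reads labelled WT and 15 reads labelled Bmi1-/- at the commonest background. No paired analysis was possible because each genotype had 1 library.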

Other observations

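The genes next to the clusters had promoter peaks of varied strength. Skap2, next to Hoxa, had them at percentiles of 81.0 labelled WT and 91.4 labelled Bmi1-/-, and Calcoco1, next to Hoxc, at 85.7 and 90.2. Evx2, a homeobox gene 8.75 kb from Hoxd13, had a promoter peak in the library labelled Bmi1-/- only, at percentile 15.8, and so did Mtx2 on the other side of Hoxd at 29.2. Evx1 and Ttll6 had none in either list. Skap1 (percentile 23.3) and Smug1 (18.9) had one in the library labelled WT only. Of these 8 neighbors, 2 had promoter peaks in both lists.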
